A study of Mus musculus with 20 samples.

Results

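Salivary glands are built from acinar cells that secrete saliva, ducts that modify it and contractile myoepithelial cells around both, and each lineage is kept by a small set of transcription factors. The expression of 10 of these factors was followed in the healthy mouse gland from weaning age to adulthood. They were Bhlha15 (Mist1), a basic helix-loop-helix factor that scales up the secretory machinery of serous exocrine cells, the SOX factors Sox9, Sox10 and Sox2, which mark progenitors and acinar lineages of the developing gland, the ETS factors Spdef, Ehf, Elf5, Elf3 and Etv1, which act in secretory, mucous and ductal epithelia, and Tfcp2l1, a Grainyhead-related factor of ducts. Members were found as probe sets annotated with 1 gene symbol, and the probe set of highest mean over the arrays stood for its gene. Of the 10 factors, 9 were measured in this way among 18194 genes. Etv1 had 0 probe sets of its own, because its 3 probe sets also carried a second symbol, and no value is given for it.

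The study profiled salivary glands, freed of lymph nodes, of C57BL/6J mice aged 4, 8, 12 or 16 weeks. Each age had 5 mice, and each mouse had 1 array. The labels give no treatment, and the strain served as the healthy control of a Sjögren's syndrome model that is not analysed here. Values are log2 signals from Affymetrix whole-genome mouse arrays after robust multi-array averaging (RMA), so that a difference of 1 is a change of 2-fold. All mice are labelled male, yet Xist, the transcript of the inactive X chromosome, lay between 8.96 and 10.72 on every array, above at least 96.3% of genes. The Y-linked Eif2s3y, Kdm5d and Uty reached at most 2.97, 4.75 and 5.76, so the sex in the labels stands against these values and is not used below. The acinar products Mucl2, Car6 and Prol1 had at least 12.90, 12.41 and 12.26 on every array, while Amy1 ranged between 3.81 and 12.35 and Bpifa2 between 6.28 and 13.35. The glands are mixtures of cells, and fewer cells of a type and less RNA per cell cannot be told apart.

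The promoters of Bhlha15 and of 3 ETS factors are shown. Among the members with a promoter in the table, Elf5 and Spdef had the lowest p-values of the ETS factors and Elf3 the flattest course. Each sequence holds the 250 bases before an annotated start, read 5′ to 3′ on the gene's strand from RefSeq (mouse build GRCm38.p6). The table held promoters for 7 of the 10 factors. Capitals mark matches to the core motif of the factor's own family on either strand, CANNTG (the E-box) for Bhlha15 and GGAA or its complement TTCC for the ETS factors, and other motifs, which may overlap, are not marked. The promoter of Bhlha15 lies at chr5:144190036-144190285 on the plus strand, that of Elf5, 1 of 2 in the table, at chr2:103411848-103412097 on the plus strand, that of Spdef at chr17:27728952-27729201 on the minus strand, where the start used lies inside the annotated bounds of the gene, and that of Elf3 at chr1:135258473-135258722 on the minus strand.
Bhlha15: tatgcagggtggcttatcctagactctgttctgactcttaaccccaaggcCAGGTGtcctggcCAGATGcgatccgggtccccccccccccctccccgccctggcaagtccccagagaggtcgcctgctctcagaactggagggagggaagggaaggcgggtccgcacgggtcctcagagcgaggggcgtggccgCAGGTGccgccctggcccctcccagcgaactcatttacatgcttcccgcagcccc
Elf5: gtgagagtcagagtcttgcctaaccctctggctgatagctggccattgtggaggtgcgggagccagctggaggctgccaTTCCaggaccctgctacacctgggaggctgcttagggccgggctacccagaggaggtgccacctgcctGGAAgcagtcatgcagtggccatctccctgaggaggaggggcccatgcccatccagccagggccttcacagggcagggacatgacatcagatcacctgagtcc
Spdef: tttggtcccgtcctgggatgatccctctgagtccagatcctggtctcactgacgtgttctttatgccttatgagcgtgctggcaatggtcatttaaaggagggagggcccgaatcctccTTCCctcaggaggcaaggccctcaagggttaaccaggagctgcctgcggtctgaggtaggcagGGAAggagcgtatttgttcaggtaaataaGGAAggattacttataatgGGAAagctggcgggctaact
Elf3: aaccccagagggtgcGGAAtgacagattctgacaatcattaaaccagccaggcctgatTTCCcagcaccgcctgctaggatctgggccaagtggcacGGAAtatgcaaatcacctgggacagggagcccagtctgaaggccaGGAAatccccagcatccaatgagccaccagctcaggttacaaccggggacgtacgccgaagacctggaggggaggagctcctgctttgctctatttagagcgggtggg
The Bhlha15 promoter held 3 E-boxes, above the median of 1 and the upper quartile of 2 over 32851 promoters, and 66.2% of these held at least 1. The ETS core occurred 2 times in the Elf5 promoter and 4 times in those of Spdef and Elf3. Its median over all promoters was 3, with quartiles of 2 and 4, and 93.4% held it. The presence of motifs this common does not set these promoters apart. No test of the counts was made, and a match is no evidence of binding.

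Across the 4 ages, 0 of the 9 measured factors passed the test. The moderated F test of limma over the 4 ages called, at an adjusted p under 0.05 (Benjamini-Hochberg, all 18194 genes), 2.6% of all genes, and the lowest adjusted p among the factors was 0.122, for Spdef. At an unadjusted p under 0.05 the F test took 4 of the 9 factors (Bhlha15, Spdef, Ehf and Elf5), against 25.9% of all genes. In addition 0 of the 9 had values at any 2 ages that did not overlap, against 5.75% of all genes for 8 against 4 weeks, 5.34% for 12 against 8 weeks, 2.65% for 16 against 12 weeks, 2.35% for 12 against 4 weeks, 0.945% for 16 against 8 weeks and 3.07% for 16 against 4 weeks. The order of a factor's 4 age means is therefore a description, since no neighbours in it differed beyond the spread between mice after adjustment. For 7 of the 9 the mean was lower at 8 than at 4 weeks, higher again at 12 weeks and lower again at 16 weeks; the exceptions were Sox9, highest at 16 weeks, and Elf3, which hardly moved.

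**Figure D1:**
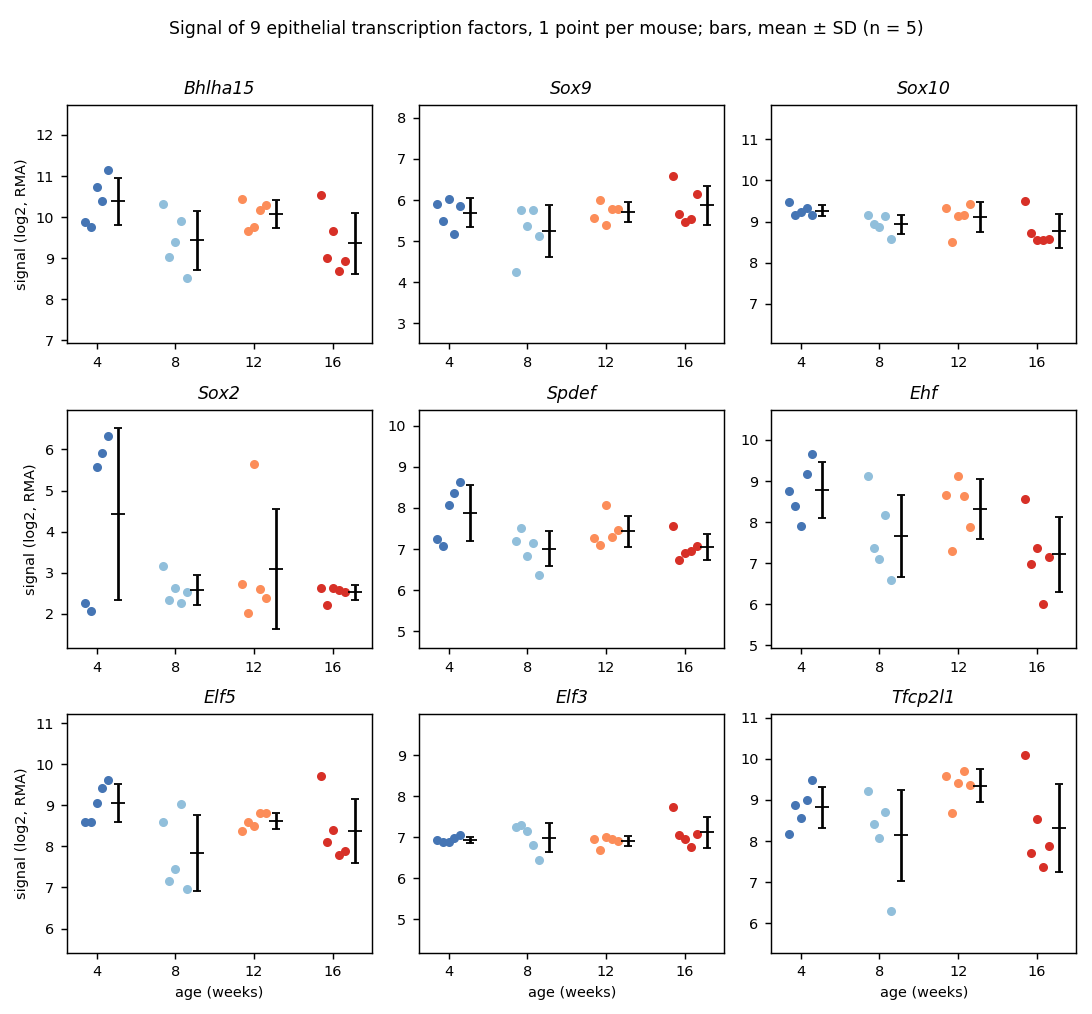
Log2 signal (vertical axis) of the 9 measured transcription factors by age of the mice (horizontal axis, weeks). Each point is a mouse, and the bars beside the points are the mean ± SD of 5 mice. Most panels dip at 8 and 16 weeks, the ages overlap in every panel, and Sox2 falls into 4 high and 16 low arrays.

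Bhlha15 was among the brightest genes of the gland, above 99.1% of genes by its mean over 20 arrays. Probe sets bind with different strength, so such ranks describe brightness on the array and not numbers of transcripts. Its signal was 9.88, 9.76, 10.72, 10.40 and 11.15 at 4 weeks, 10.33, 9.04, 9.39, 9.91 and 8.51 at 8 weeks. It was 10.44, 9.67, 9.75, 10.18 and 10.29 at 12 weeks and 10.53, 9.003, 9.66, 8.69 and 8.93 at 16 weeks. The highest mice were replicate 5 at 4 weeks and replicate 3 at 4 weeks, the mice at 8 and 16 weeks reached down to 8.51 and 8.69, and replicates 1 and 4 at 8 weeks and replicate 1 at 16 weeks lay within the range of the 4-week mice. Bhlha15 averaged 9.43 ± 0.71 at 8 weeks and 10.38 ± 0.58 at 4 weeks (SD, n = 5 each), a difference of -0.95 (SE 0.35, limma, adjusted p = 0.0823) or 0.519 times the earlier level. At 16 weeks it averaged 9.36 ± 0.74, and the difference from 4 weeks was -1.02 (SE 0.35, limma, adjusted p = 0.0948). Its second probe set was dim and flat, with a difference of -0.01 at 8 against 4 weeks and an r of 0.114 with the first.

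Genes that Bhlha15 is known to drive in other exocrine cells were read beside it. Of 7 such genes measured, 1 was lower and 0 were higher at 8 than at 4 weeks, and 2 were lower and 0 higher at 16 than at 4 weeks, with negative differences for 7 and 6 of the 7. Over all genes 7.39% and 3.63% passed in these comparisons, and 45.2% and 49.1% were negative. The gap junction gene Gjb1 fell by 1.30 to 7.14 ± 0.64 at 8 weeks, against 8.44 ± 0.83 at 4 weeks (SD, n = 5 each, limma, adjusted p = 0.039), and by 1.37 at 16 against 4 weeks (limma, adjusted p = 0.0426). Copz2, a coatomer subunit of vesicle transport, fell by 1.33 at 16 against 4 weeks (limma, adjusted p = 0.0431). Tpd52 and the secretory granule GTPases Rab3d and Rab26 had differences of -0.96, -0.75 and -0.43 at 8 against 4 weeks that did not pass the test. The median of the 7 was -0.75 at 8 against 4 weeks, beside 0.05 over all genes and -0.49 in the decile of genes with the highest mean signal. Markers of acinar cells (-0.73), of fibroblasts (-0.70) and of epithelium in general (-0.69) had like medians. Myoepithelial and basal markers had -0.41, and those of ducts (0.005) and endothelium (0.01) did not fall. Whether the 7 genes followed Bhlha15 was not tested. Without replicate 5 at 4 weeks the adjusted p of Gjb1 was 0.134 and 0.148 in these comparisons and that of Copz2 0.149, and in all Gjb1 passed in 15 and 9 and Copz2 in 8 of 20 fits that left out 1 mouse. When the spread of signal (the SD of all gene values within an array) entered the fit as a covariate, these differences did not pass, with -0.53 and -0.66 for Gjb1 (limma, adjusted p = 0.503 and 0.341) and -0.48 for Copz2 (limma, adjusted p = 0.263). Of the 7 dimerization partners and inhibitors of this factor class (Tcf3, Tcf4, Tcf12 and Id1 to Id4), 0 passed the test at any 2 ages, although the differences at 16 against 4 weeks were negative for 7 of 7, with a median of -0.26.

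Sox9, a factor of progenitor and ductal cells, followed another course. The 5 mice had 5.90, 5.48, 6.04, 5.18 and 5.85 at 4 weeks and 4.24, 5.76, 5.36, 5.77 and 5.12 at 8 weeks. At 12 weeks they had 5.57, 6.01, 5.40, 5.79 and 5.78, and at 16 weeks 6.59, 5.66, 5.46, 5.53 and 6.14. The lowest mouse of all was replicate 1 at 8 weeks and the highest was replicate 1 at 16 weeks, and all ages overlapped. The means were 5.87 ± 0.48 at 16 weeks and 5.25 ± 0.63 at 8 weeks (SD, n = 5 each), and this difference of 0.62 (SE 0.26, limma, adjusted p = 0.822) was the only one of Sox9 with an unadjusted p under 0.05. Its other probe sets were dimmer and followed the first weakly, with r of 0.343 and 0.0405 over 20 arrays.

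Sox10 is known in salivary acinar and myoepithelial cells and in the Schwann cells of nerves. Its signal was bright, above 98% of genes, and varied less than that of most members, from 8.50 to 9.51 over all mice. The 4-week mice had 9.47, 9.15, 9.22, 9.32 and 9.15, the 8-week mice 9.16, 8.93, 8.87, 9.13 and 8.57, the 12-week mice 9.33, 8.50, 9.13, 9.17 and 9.42 and the 16-week mice 9.51, 8.71, 8.55, 8.55 and 8.57. At 16 weeks 4 mice lay within 8.55 to 8.71 and replicate 1 stood at 9.51, above every other mouse of the study. Sox10 averaged 8.78 ± 0.41 at 16 weeks and 9.26 ± 0.14 at 4 weeks (SD, n = 5 each), a difference of -0.48 (SE 0.19, limma, adjusted p = 0.133) that turned to 0.30 after cyclic loess and to 0.22 after quantile normalization of the arrays. The second probe set had a difference of -0.28 and the third of 0.13 in this comparison, so the 3 probe sets differed in sign. Of 9 measured Schwann cell and nerve genes, 0 passed the test at any 2 ages, against at most 7.39% of all genes in a comparison. The log2 of their mean linear signal ranged over the mice from 5.84 to 6.49 at 4 weeks, 5.67 to 5.97 at 8 weeks, 5.88 to 6.17 at 12 weeks and 5.61 to 6.45 at 16 weeks. At 16 against 4 weeks 5 of these 9 genes were negative (49.1% of all genes), among them the myelin gene Mbp with -0.23, while Ngfr, a neurotrophin receptor of Schwann cells, had 0.51. Of 9 myoepithelial and basal genes 9 had a negative difference at 16 against 4 weeks and 1, Myl9, passed the test (3.63% of all genes did). Of 17 acinar genes 14 were negative and 3 passed as lower. Negative differences were also held by 12 of 13 general epithelial, 9 of 10 fibroblast, 6 of 16 duct and 5 of 8 endothelial genes. The part of any of these cell types in the Sox10 signal was not tested.

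Sox2, a progenitor factor known for its role in the sublingual acinar lineage of the developing gland, was split between mice rather than between ages. It was high in 4 arrays, at 5.57, 5.92 and 6.33 in replicates 3, 4 and 5 at 4 weeks and at 5.65 in replicate 3 at 12 weeks. The other 16 arrays lay between 2.03 and 3.17, and the gap of 2.40 between both sets was the widest in its range. At 4 weeks the remaining mice, replicates 1 and 2, had 2.26 and 2.06, below each of the 8-week mice (3.17, 2.32, 2.62, 2.27 and 2.53) and at the lower end of the 16-week mice (2.63, 2.21, 2.64, 2.57 and 2.54). The means were 2.58 ± 0.36 at 8 weeks and 4.43 ± 2.09 at 4 weeks (SD, n = 5 each), a difference of -1.85 (SE 0.72, limma, adjusted p = 0.0932), and the 95% interval ran from -3.36 to -0.34. The low level, above only 6.43% of genes by its mean, is near the dim end of the array, where small differences carry little information.

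The 3 genes whose signal followed Sox2 most closely over the 20 arrays were Serpinb11 (r = 0.97), a serpin, Dnajc10 (r = 0.969), an endoplasmic reticulum disulfide reductase, and Nxpe4 (r = 0.966). Serpinb11 was at 8.68, 8.96, 9.27 and 8.59 in the 4 arrays with high Sox2 and at most 6.01 elsewhere. Among 17 measured acinar markers the closest was Dcpp1, a secreted protein of salivary demilune cells, with r = 0.929. It had 8.25, 8.74, 8.89 and 8.79 in the same 4 arrays, in the same order, and at most 6.09 in the others. Dcpp3 had an r of 0.725, and the other acinar markers lay between -0.34 (Prr27) and 0.64 (Cldn10). Amy1, an amylase abundant in the parotid gland, had an r of 0.173 with Sox2. These correlations share arrays and rest on the separation of 4 arrays, so they describe which genes were high in the same mice and carry no p. The labels do not say which of the salivary glands each sample holds, and the part of gland make-up in the Sox2 signal was not tested.

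**Figure D2:**
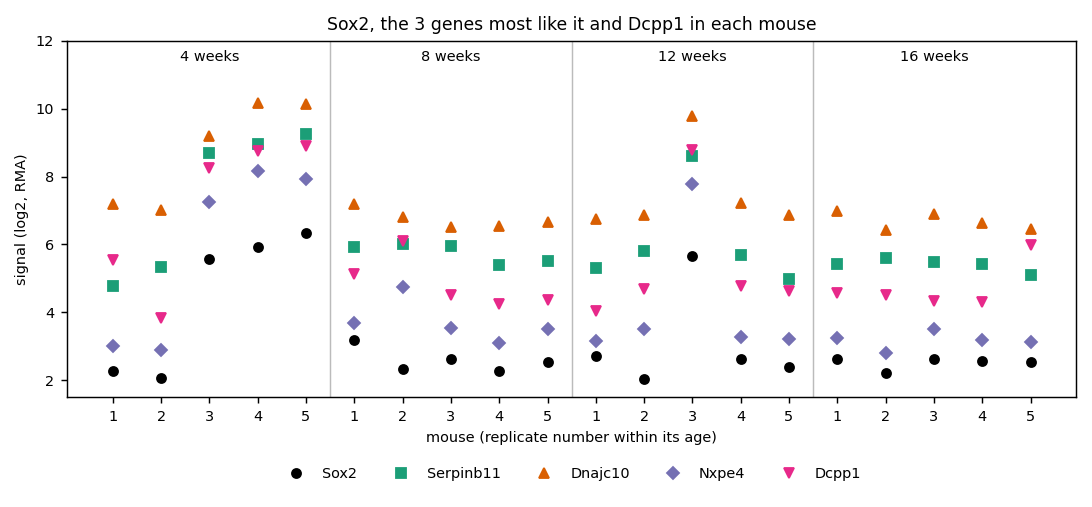
Log2 signal (vertical axis) of Sox2, of the 3 genes most like it (Serpinb11, Dnajc10 and Nxpe4) and of the acinar marker Dcpp1 in each of the 20 mice, ordered by age and replicate number (horizontal axis). All 5 genes are high in replicates 3, 4 and 5 at 4 weeks and in replicate 3 at 12 weeks, where Sox2 lies between 5.57 and 6.33.

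The ETS factors Spdef, Ehf and Elf5 had the lowest adjusted p-values of the members. Spdef, a factor of mucous and secretory differentiation, had 7.25, 7.09, 8.07, 8.37 and 8.63 at 4 weeks and 7.20, 7.51, 6.84, 7.15 and 6.36 at 8 weeks. It had 7.26, 7.09, 8.07, 7.29 and 7.47 at 12 weeks and 7.56, 6.73, 6.89, 6.96 and 7.07 at 16 weeks. The mice above 8 were replicates 3, 4 and 5 at 4 weeks and replicate 3 at 12 weeks, the same mice in which Sox2 was high, and the rest lay at or below 7.56. Spdef averaged 7.01 ± 0.44 at 8 weeks and 7.88 ± 0.68 at 4 weeks (SD, n = 5 each), a difference of -0.87 (SE 0.28, limma, adjusted p = 0.0557) or 0.548 times the earlier level. The difference at 16 against 4 weeks was -0.84 (SE 0.28, limma, adjusted p = 0.0845).

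Ehf, an ETS factor of glandular epithelia, had 8.76, 8.39, 7.91, 9.17 and 9.67 at 4 weeks and 9.12, 7.36, 7.09, 8.16 and 6.60 at 8 weeks. At 12 weeks its signal was 8.65, 7.30, 9.13, 8.65 and 7.87, and at 16 weeks 8.57, 6.98, 7.37, 6.01 and 7.15. Replicate 4 at 16 weeks was the lowest mouse and replicate 5 at 4 weeks the highest, and 1 mouse at 8 weeks (replicate 1) exceeded 3 of the 5 mice at 4 weeks. Ehf averaged 7.22 ± 0.92 at 16 weeks and 8.78 ± 0.68 at 4 weeks (SD, n = 5 each), a difference of -1.56 (SE 0.47, limma, adjusted p = 0.0658) or 0.338 times the earlier level. It was -1.11 at 8 against 4 weeks (SE 0.47, limma, adjusted p = 0.116) and -1.10 at 16 against 12 weeks (SE 0.47, limma, adjusted p = 0.307).

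Ehf had 4 probe sets, and 1 of the dimmer ones was the only probe set of any member that passed the test. When all 34958 single-symbol probe sets were tested on their own, 1 of the 20 probe sets of the members was called at 8 against 4 weeks (6.44% of all), 1 at 16 against 4 weeks (3.5% of all) and 1 in the F test (2.32% of all), each time 1419475_a_at of Ehf. This probe set had 4.90, 4.89, 4.64, 5.19 and 4.88 at 8 weeks, against 5.46, 5.48, 6.12, 6.22 and 7.13 at 4 weeks. It fell by 1.18 (limma, adjusted p = 0.0219), and by 1.47 to 5.06, 4.36, 4.89, 4.32 and 4.43 at 16 weeks (limma, adjusted p = 0.00769), and in both comparisons every older mouse was below every 4-week mouse. It correlated with the brighter probe set at r = 0.703. A further probe set, 1447760_x_at, ran the other way, with a difference of 0.47 at 8 against 4 weeks (limma, adjusted p = 0.279) and an r of -0.401 with the brighter probe set. Every 8-week mouse was above every 4-week mouse here too, with 6.92, 6.67, 6.66, 6.81 and 7.13 at 8 weeks, against 6.52, 6.51, 6.33, 6.54 and 5.93 at 4 weeks. Its suffix marks probes that can bind other transcripts.

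Elf5, a factor of secretory and luminal epithelia known best from the mammary gland, had 8.59, 8.61, 9.06, 9.43 and 9.60 at 4 weeks and 8.60, 7.16, 7.44, 9.04 and 6.97 at 8 weeks. The mice at 12 weeks were close together at 8.38, 8.59, 8.50, 8.82 and 8.81, and those at 16 weeks had 9.71, 8.11, 8.39, 7.80 and 7.90. Replicates 2, 3 and 5 at 8 weeks were the lowest of all mice, and replicate 1 at 16 weeks was the highest. Elf5 averaged 7.84 ± 0.92 at 8 weeks and 9.06 ± 0.46 at 4 weeks (SD, n = 5 each), a difference of -1.22 (SE 0.37, limma, adjusted p = 0.0507), the lowest adjusted p of any member and 0.43 times the earlier level. At 12 against 8 weeks the difference was 0.78 (SE 0.37, limma, adjusted p = 0.265). The second probe set of Elf5 was dimmer and fell less, with -0.51 at 8 against 4 weeks (limma, adjusted p = 0.195). It had an r of 0.48 with the first.

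Elf3, an epithelium-restricted ETS factor, was the steadiest of the 9. The SD between mice of 1 age was 0.08, 0.36, 0.13 and 0.37 from the youngest to the oldest mice. All but 1 of the 20 mice lay between 6.44 and 7.30, and replicate 1 at 16 weeks had 7.75. The difference at 8 against 4 weeks was 0.05, with a 95% interval of -0.31 to 0.40 (limma, adjusted p = 0.867), and the range of the 4 age means was 0.21. A larger set of mice could still find a difference within that interval.

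Tfcp2l1, a factor of duct cells in kidney and salivary gland, was the only member whose mean was highest at 12 weeks. Its signal was 8.17, 8.88, 8.57, 8.99 and 9.49 at 4 weeks and 9.21, 8.40, 8.08, 8.70 and 6.29 at 8 weeks. It was 9.58, 8.69, 9.42, 9.70 and 9.37 at 12 weeks and 10.08, 7.71, 8.54, 7.36 and 7.89 at 16 weeks. Replicate 1 at 16 weeks was the highest mouse and replicate 5 at 8 weeks, at 6.29, the lowest. The averages were 9.35 ± 0.39 at 12 weeks and 8.14 ± 1.11 at 8 weeks (SD, n = 5 each), and this difference of 1.22 (SE 0.47, limma, adjusted p = 0.199) was the largest positive difference of any member between neighbouring ages. At 16 against 12 weeks it was -1.04 (SE 0.47, limma, adjusted p = 0.332), and without replicate 1 at 16 weeks it was -1.48 (limma, adjusted p = 0.0426). Over all genes 1035 passed in the fit without this mouse, against 35 with every mouse. The other probe sets of Tfcp2l1 were dim and did not follow the first, with r of -0.189 and -0.127. Of the 5 measured relatives (Tfcp2, Ubp1 and Grhl1 to Grhl3), 0 passed the test at any 2 ages, against at most 7.39% of all genes in a comparison.

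Between 4 and 8 weeks, 8 of 9 members had a negative difference, against 45.2% of all genes, and the median of the 9 was -0.87 against 0.05. Most members are bright, and bright genes fell as a whole. The median of the brightest decile, which holds Bhlha15, Sox10, Ehf, Elf5 and Tfcp2l1, was -0.49. Of the 9, 0 passed the test (7.39% of all genes did), and 5 were lower and 0 higher at an unadjusted p under 0.05, against 15.5% of all genes lower and 16.9% higher. The call turned on single mice. Without replicate 1 at 8 weeks Bhlha15, Ehf and Elf5 passed, with differences of -1.17, -1.48 and -1.41 (limma, adjusted p = 0.0422, 0.0442 and 0.0344). Without replicate 1 at 4 weeks Sox2, Spdef and Elf5 passed, with -2.39, -1.03 and -1.33, and without replicate 2 at 4 weeks the same 3 passed with -2.44, -1.07 and -1.33. Without replicate 4 at 8 weeks Spdef and Elf5 passed with -0.90 and -1.52, and 2694 of all genes passed in this fit, against 1345 with every mouse. Without replicate 1 at 16 weeks, a mouse outside the comparison that adds to the shared estimate of spread, Bhlha15, Spdef and Elf5 passed. Leaving out any of the other 15 mice left the count of members at 0. Over all genes the count in the fits without 1 mouse ran from 14, without replicate 5 at 4 weeks, to 2694. The turn on single mice was therefore not particular to the members.

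From 8 to 12 weeks the signs turned, with 1 of 9 differences negative (55.9% of all genes) and a median of 0.50 against -0.05 over all genes. The median of the brightest decile was also 0.50. Of the members, 0 passed (0.0055% of all genes did), and Tfcp2l1 and Elf5 alone had an unadjusted p under 0.05, both higher, against 11.1% of all genes higher and 7.74% lower at this level. From 12 to 16 weeks 7 of 9 were negative (53.2% of all genes), with a median of -0.39 against -0.02, and -0.53 in the brightest decile. Again 0 passed (0.192% of all genes), and Ehf and Tfcp2l1 were lower at an unadjusted p under 0.05 (9.99% of all genes were lower and 4.18% higher). Neighbouring comparisons share an age, so that a low set of 8-week mice lowers the first and raises the second. At 12 against 4 weeks 0 of 9 passed (0.0934% of all genes), 0 had an unadjusted p under 0.05 (4.01% of all genes were lower and 5.02% higher) and 7 of 9 were negative (48.7% of all genes). At 16 against 8 weeks 0 passed (0% of all genes), only Sox9 had an unadjusted p under 0.05 (1.42% of all genes were higher and 4.39% lower) and 4 of 9 were negative (59.4% of all genes).

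Over the whole period, 16 against 4 weeks, 7 of 9 members were lower in sign (49.1% of all genes) with a median of -0.67 against 0.01, and -0.55 in the brightest decile. Of the 9, 0 passed the test (3.63% of all genes did), and Bhlha15, Sox10, Sox2, Spdef and Ehf were lower at an unadjusted p under 0.05, with 0 higher (15.2% of all genes were lower and 9.01% higher). Replicate 1 at 16 weeks, the highest of its age for Bhlha15, Sox9, Sox10, Spdef, Ehf, Elf5, Elf3 and Tfcp2l1, weighed on this comparison. Without it 5 members passed, Bhlha15 with -1.31, Sox10 with -0.66, Spdef with -0.97, Ehf with -1.90 and Elf5 with -1.01 (limma, adjusted p = 0.0125, 0.0128, 0.0273, 0.0104 and 0.0441). The gain was not particular to the members, since 3003 of all 18194 genes passed in this fit, against 660 with every mouse. Among all fits without 1 mouse this count over all genes ran from 81, without replicate 2 at 16 weeks, to 3003. Without replicate 1 at 4 weeks Sox2 and Spdef passed with -2.45 and -0.996, without replicate 2 at 4 weeks the same 2 passed with -2.50 and -1.04, and without replicate 1 at 8 weeks Ehf passed (adjusted p = 0.0471). With array weights, which lower the part of arrays that vary more, Bhlha15, Sox10, Spdef and Ehf passed with -1.08, -0.61, -0.84 and -1.57. These weights also raised the share of all genes that passed to 7.63%.

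**Figure D3:**
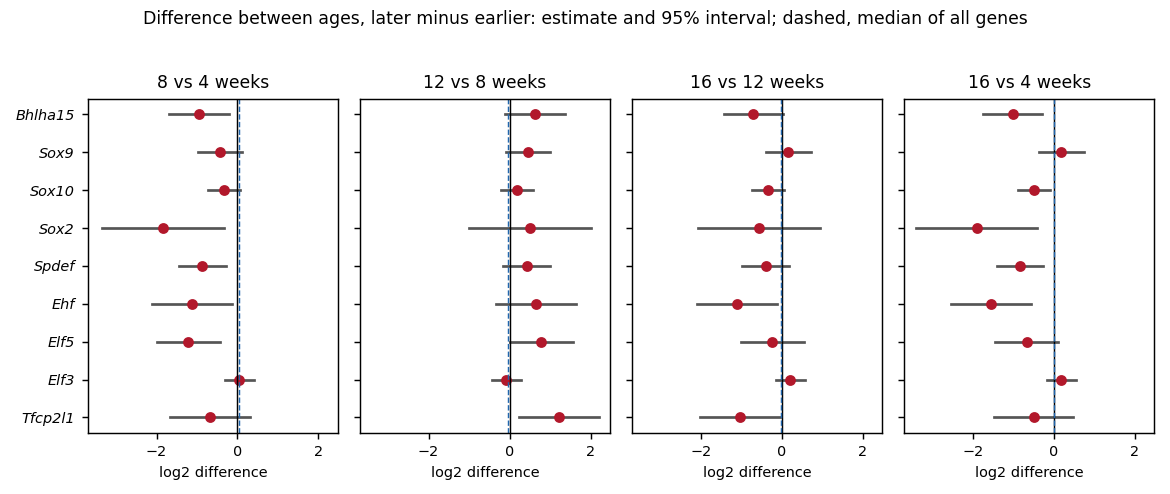
Log2 difference of the later minus the earlier age (horizontal axis) for the 9 members, as the estimate of limma with its 95% interval, in 4 comparisons of ages. The dashed line is the median of all genes. Estimates lie mostly left of 0 at 8 against 4 and 16 against 4 weeks and right of 0 at 12 against 8 weeks, and 0 of them passed the test after adjustment.

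The level of bright genes as a whole also differed between ages. Bhlha15, Sox10, Ehf, Elf5 and Tfcp2l1 belong to the decile of genes with the highest mean signal, and the median difference in that decile was -0.49 at 8 against 4 weeks, 0.50 at 12 against 8 weeks, -0.53 at 16 against 12 weeks and -0.55 at 16 against 4 weeks. Spdef and Elf3 lie in the decile below it, with a median of -0.25 at 8 against 4 weeks. Beside these medians, Bhlha15, Ehf, Elf5 and Tfcp2l1 had differences of -0.95, -1.11, -1.22 and -0.68 at 8 against 4 weeks, all farther from 0, and Sox10 had -0.33. Spdef had -0.87 and Elf3 0.05 in the same comparison. At 16 against 4 weeks Bhlha15 (-1.02), Ehf (-1.56) and Elf5 (-0.67) were farther from 0 than their decile, and Sox10 (-0.48) and Tfcp2l1 (-0.50) were nearer. At 16 against 12 weeks Bhlha15 (-0.70), Ehf (-1.10) and Tfcp2l1 (-1.04) were farther, and Sox10 (-0.33) and Elf5 (-0.24) were nearer. No test of a member against its decile was made. The spread of signal, the SD of all gene values within an array, averaged 1.68 ± 0.14, 1.498 ± 0.09, 1.64 ± 0.03 and 1.51 ± 0.14 from the youngest to the oldest mice (SD, n = 5 an age). Replicate 1 at 16 weeks had a spread of 1.74, the highest of its age.

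Among mice of 1 age most members followed this spread, as bright genes did in general. With values centred on each age, Bhlha15 had r = 0.881 and rho = 0.874 with the spread over 20 arrays (permutation test within ages, adjusted p = 0.000107 and 0.000267 over 8 relations). Tfcp2l1, Elf5, Ehf and Spdef had r of 0.836, 0.831, 0.794 and 0.767, with rho of 0.875, 0.838, 0.824 and 0.72. Elf3 had 0.661 and Sox10 0.529 (permutation test, adjusted p = 0.00637 and 0.027), while Sox9 had 0.187 (rho 0.108, permutation test, adjusted p = 0.481). Without the 2 arrays farthest from the median spread the r of Bhlha15 was 0.838, that of Sox10 0.463 and that of Sox9 -0.17. A median gene of the brightest decile had an r of 0.767, with quartiles of 0.346 and 0.858, and the median over all genes was -0.05. The spread is computed from the same gene values, so a bright gene follows it in part by construction. The permutation p-values therefore do not set the members apart from other bright genes. Sox2 was left out of these relations because its arrays form separate clusters.

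**Figure D4:**
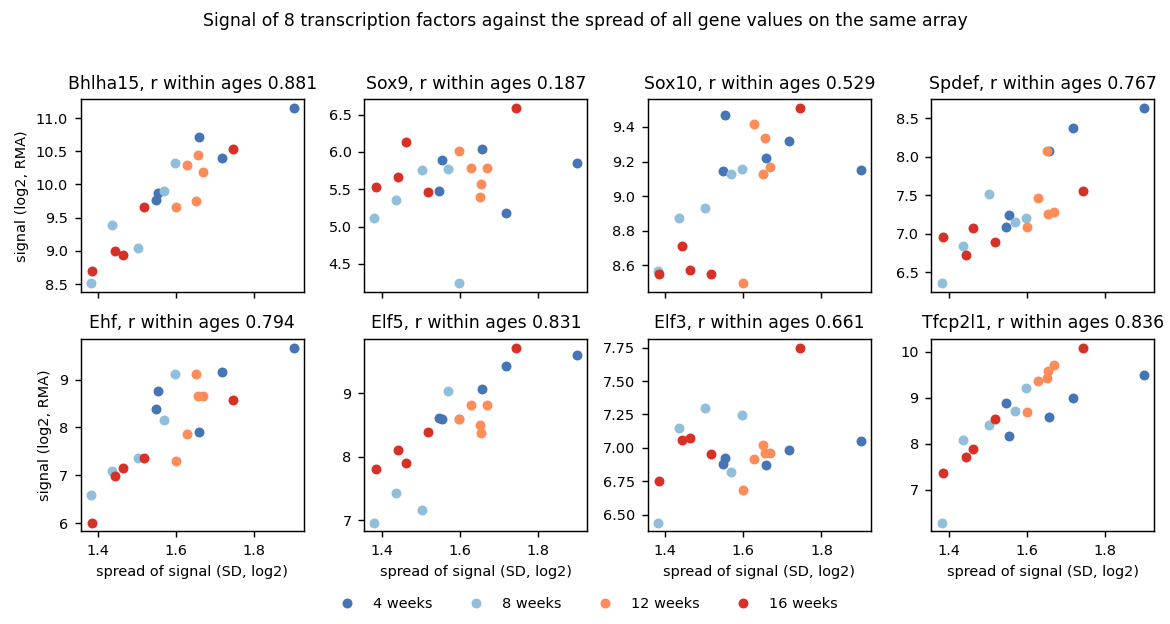
Log2 signal of 8 members (vertical axes) against the spread of signal, the SD of all gene values on the same array (horizontal axis), with 1 point per mouse coloured by age. The panel titles give r with values centred on each age, from 0.187 for Sox9 to 0.881 for Bhlha15.

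Pairs of the 8 members had r within ages from -0.14 to 0.865, with a median of 0.601 over 28 pairs. These values are a description, since bright genes share the spread of signal of an array and pairs of equally bright genes were not compared. The highest was Bhlha15 with Elf5 (r = 0.865, rho = 0.871, 0.785 without the 2 farthest arrays), followed by Bhlha15 with Tfcp2l1 (r = 0.862) and Elf3 with Tfcp2l1 (r = 0.84, 0.614 without the 2 farthest arrays). The 7 pairs with Sox9 had r between -0.14 and 0.219.

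When the spread of signal entered the fit as a covariate, the bright members differed less between 8 and 4 weeks. At 8 against 4 weeks the difference of Bhlha15 was -0.08 (SE 0.21), that of Ehf -0.05 (SE 0.34), that of Elf5 -0.35 (SE 0.25) and that of Spdef -0.29 (SE 0.22), and the median of the 9 was -0.08 in place of -0.87. Tfcp2l1 had 0.44 and Elf3 0.33. At 16 against 4 weeks Ehf had -0.58 (SE 0.33) and Elf5 0.13 (SE 0.25). Elf3, flat without the covariate, had 0.44 (SE 0.16, limma, adjusted p = 0.266) and Tfcp2l1 0.53 (SE 0.30) in this comparison. In these fits 0 of the 9 passed in any comparison. The spread of signal itself differed with age, so age and spread are partly confounded, and the part of each in the members' levels cannot be told apart.

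The genes most like each member over the 20 arrays, chosen by the highest Pearson r, were Spcs3 (0.968), Srp68 (0.96) and Hnrnpc (0.956) for Bhlha15, Spcs3 being a subunit of signal peptidase and Srp68 of the signal recognition particle. For Spdef they were Anxa2 (0.959), Nupr1 and Tspan3, and for Ehf Btg1 (0.946), Myl12b and Snrpe. For Elf5 they were 1500002F19Rik (0.943), Ctnna1 and Jtb, and for Tfcp2l1 Pip4k2c (0.942), Atp1b1 and Ckmt1, Atp1b1 being a subunit of the sodium pump. The likeness was lower for Sox10, with Cystm1 (0.885), Sec14l1 and Palmd, for Sox9, with Rnf6 (0.854), 8430419K02Rik and Gtf3c2, and for Elf3, with Gm11716 (0.808), Pik3ip1 and Plec. Bright genes share the spread of signal of an array, so these r are a description and link no member to a function.

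Some other transcription factors of glandular epithelium passed the test. Of 38 measured, 3 were lower and 0 higher at 8 than at 4 weeks, near the share over all genes (7.39% passed). At 16 against 4 weeks 4 were lower and 1 higher (3.63% of all genes passed), and 5 passed the F test (2.6%). Foxa1, a pioneer factor of endoderm and gland epithelium, fell by 1.40 to 7.15 ± 0.59 at 8 weeks, against 8.55 ± 0.68 at 4 weeks (SD, n = 5 each, limma, adjusted p = 0.0257), and by 1.46 at 16 against 4 weeks (limma, adjusted p = 0.0197). Irx2, an Iroquois homeobox factor, fell by 0.97 and 0.93 in these comparisons (limma, adjusted p = 0.0181 and 0.0153), and Wwtr1 (TAZ), a coactivator of the Hippo pathway, by 0.87 and 0.90 (limma, adjusted p = 0.0307 and 0.0301). Klf5 fell by 0.89 at 16 against 4 weeks (limma, adjusted p = 0.0423). In the other direction Meis1, a homeobox cofactor, rose by 1.31 to 7.60 ± 0.70 at 16 weeks, against 6.29 ± 0.42 at 4 weeks (SD, n = 5 each, limma, adjusted p = 0.0434). Esrrg, an orphan nuclear receptor of ion-transporting epithelia, passed the F test alone (limma, adjusted p = 0.0416), with means of 6.29, 6.51, 8.19 and 7.79 from 4 to 16 weeks. Without replicate 5 at 4 weeks Foxa1, Irx2 and Wwtr1 had adjusted p of 0.0883, 0.0735 and 0.107 at 8 against 4 weeks, and without replicate 4 at 4 weeks Meis1 had 0.117. Klf5 passed in 10 and Meis1 in 9 of 20 fits that left out 1 mouse. When the spread entered the fit as a covariate, Foxa1, Irx2 and Wwtr1 did not pass at 8 against 4 weeks, with -0.63, -0.74 and -0.44 (limma, adjusted p = 0.294, 0.227 and 0.411), and only Meis1 of Foxa1, Irx2, Wwtr1, Klf5 and Meis1 passed at 16 against 4 weeks (1.62, limma, adjusted p = 0.0351).

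Single genes of the wider families passed, which does not set these families apart from all genes. Of all genes 7.39% passed at 8 against 4 weeks and 3.63% at 16 against 4 weeks. Of 20 other ETS genes 1 rose at 8 against 4 weeks, Elk1 by 0.49 (limma, adjusted p = 0.0336), and 1 rose at 16 against 4 weeks, Elf2 by 0.48 (limma, adjusted p = 0.0456), although the mean of the probe sets of Elf2 gave -0.10. Elk1 passed in 15 and Elf2 in 5 of 20 fits that left out 1 mouse, with adjusted p of 0.112 without replicate 5 at 4 weeks and 0.156 without replicate 4 at 16 weeks. The difference at 8 against 4 weeks was negative for 3 of these 20 genes (45.2% of all genes), with a median of 0.31 against 0.05 over all genes. Dim genes rose in general, with a median of 0.18 in the decile of lowest mean signal. The ETS genes were not compared with equally dim genes. Of 17 other SOX genes Sox7, an endothelial factor, rose by 0.61 at 8 against 4 weeks (limma, adjusted p = 0.0431) and 0 others passed, and without replicate 5 at 4 weeks its adjusted p was 0.138. With the spread covariate Elk1, Elf2 and Sox7 had 0.33, 0.30 and 0.38 in these comparisons and did not pass (limma, adjusted p = 0.411, 0.379 and 0.472).

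Markers of the cells in the gland are given for 8 against 4 weeks, where 7.39% of all genes passed and 45.2% were negative. At 8 against 4 weeks 3 of 17 acinar genes fell (Lpo, Ano1 and Cldn10) and 11 of 17 were negative, 2 of 13 general epithelial genes fell (Cldn7 and Esrp1) and 11 of 13 were negative, and 1 of 9 myoepithelial and basal genes fell (Myh11) and 9 of 9 were negative. The log2 of the mean linear signal of the general epithelial genes lay between 7.69 and 9.30 at 8 weeks, against 8.62 and 9.82 at 4 weeks, so the ages overlapped. Of 16 duct genes 3 rose, the kallikreins Klk1b1, Klk1b5 and Klk1b16 of the granular ducts, and 8 were negative. Of 10 fibroblast genes 4 fell, Col3a1, Postn, Col1a2 and Lum, while 0 of 8 endothelial genes passed, and Cd3e of 9 lymphocyte genes and Retn of 5 adipocyte genes rose. The part of these cell types in the levels of the members was not tested.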

How the data were processed

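Log2 signals of 45101 probe sets on 20 arrays were used as deposited by the authors, who made them by RMA (background correction, quantile normalization and summary of probes) in Expression Console 1.1. Which arrays were normalized together is not given in the sources used here, and quantile normalization hides shifts common to all genes. The values were not normalized again. A single symbol was carried by 34958 probe sets, several by 932 and none by 9211, and the brightest single-symbol probe set over all arrays stood for each of 18194 genes.

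The test was that of limma 3.58.1 (R 4.3.3) in 1 fit over all arrays with age as factor, giving 6 later minus earlier differences and an F test, and p-values were adjusted by Benjamini and Hochberg over all genes at a threshold of 0.05. The steps were tested on simulated data. The members and gene lists were chosen with earlier results of these data known. All members were named, with the called genes of the lists and the 3 genes of highest Pearson r for each member. Relations across arrays used values centred on each age and 100000 permutations within ages.

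Mice of one replicate number did not deviate together as a rule (r of deviations from -0.57 to 0.583 over 30 pairs, median 0.01), though 8 pairs had an r over 0.1. The main fit therefore does not pair mice by number, and this check cannot exclude a pairing of some of them. The labels name 5 biological replicates an age, and no batch is given. The number of arrays limits the precision. Alternatives were the mean of probe sets, each probe set alone, median centring, cyclic loess, quantile normalization, leaving out genes under the 40th percentile of signal, limma-trend with robust variances, array weights, the spread of signal as a covariate, a replicate block, the arrays of the 2 ages alone and leaving out each mouse.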

Additional observations from a re-analysis of the deposited data

Results flagged for a closer look

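Among the 36 sets of 5 mice examined (9 members at 4 ages), 3 mice lay far from the others of their set by Dixon's test, and chance marks about 1 in 20 sets. Sox10 in replicate 1 at 16 weeks was at 9.51, and the next mouse of that age was at 8.71. Sox2 in replicate 3 at 12 weeks was at 5.65, with the next mouse at 2.72. Sox2 in replicate 2 at 16 weeks was at 2.21, below the next mouse at 2.54, a difference at the dim end of the arrays.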

How the results depend on the processing

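The count of members that passed the test was 0 in each comparison and in the F test. At 8 against 4 weeks it was 1 with the mean of probe sets, 2 with median centring and 1 with a filter at the 40th percentile, which removed Sox2, and at 16 against 12 and 16 against 4 weeks it was 1 and 4 with array weights. Among all genes tested 8% passed with the mean of probe sets, 8.4% with median centring and 10.2% with the filter. With array weights 6.4% and 7.63% of all genes passed in the latter comparisons. Leaving out 1 mouse gave 0 to 5 in the F test, 0 to 3 at 8 against 4 weeks, 0 to 1 at 16 against 12 weeks and 0 to 5 at 16 against 4 weeks. Over all 18194 genes these fits gave 9 to 1035 at 16 against 12 weeks and 81 to 3003 at 16 against 4 weeks. For the F test the count over all genes was not made in these fits. With a replicate block the count of members stayed at 0, and their lowest adjusted p at 8 against 4 weeks was 0.0678. The cause of these changes was not tested. Single differences were tabulated where their unadjusted p was under 0.05 or an alternative called them, a choice made after seeing the values. At 16 against 4 weeks the difference of Sox10 was 0.30 with cyclic loess and 0.22 with quantile normalization, that of Elf5 was 0.13 with the spread covariate and that of Elf2 was -0.10 with the mean of probe sets. Over the 54 differences of the members, 13 changed sign with the covariate, 11 with cyclic loess, 7 with quantile normalization, 4 with the mean of probe sets, 2 with array weights and 0 with the remaining alternatives other than leaving out mice. The count over all genes at 8 against 4 weeks ran from 14 to 2694 when 1 mouse was left out, so the counts here are loosely set by 5 mice an age. Sox2 lies near the dim end of the arrays, where signal limits what can be seen.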
